A study of Homo sapiens with 12 samples.

Results

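The caspases are the proteases that carry out apoptosis, and the genes described here are 5 of them (CASP2, CASP6, CASP8, CASP9 and CASP10) with 3 genes of their activation machinery (APAF1, CYCS and XIAP). These 8 genes were taken by name from the 20136 protein-coding genes of chromosomes 1 to 22, X and Y. The rule uses no measured value, but the genes were listed with earlier results of these data known. Trimethylation of lysine 4 of histone H3 (H3K4me3) was mapped by CUT&RUN. In this assay a nuclease is tethered by an antibody to its target in permeabilized cells, and the DNA it cuts free is sequenced. All libraries came from BON1, a human pancreatic neuroendocrine tumor cell line grown with puromycin, at 500000 cells per condition. The control line is named BON1/TGL/pQ. The other line overexpresses HA-Bcl-xL, an epitope-tagged form of an anti-apoptotic protein, and is named BON1/TGL/HA-Bcl-xL, so both lines carry what the labels call TGL. The labels do not say whether either line is 1 clone, or whether its replicates were separate cultures, so p-values measure only the spread between these samples, which may be technical. The question was whether the histone mark at these genes differed between the lines. Of the 12 samples, the peak lists of 11 libraries were used. Those for H3K4me3 were 3 from the control line (replicates 1 to 3) and 2 from HA-Bcl-xL cells (replicates 2 and 3), here called control libraries 1 to 3 and HA-Bcl-xL libraries 2 and 3. A rabbit anti-mouse IgG, the background reaction, gave 3 libraries of each line.

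Apoptosis is started along a pair of routes that meet at the effector caspases. At the cell surface, ligated death receptors assemble a complex that activates the initiators caspase-8 and caspase-10. In the other route, mitochondria release cytochrome c (the product of CYCS), which binds APAF1 and drives it to assemble into the apoptosome, the platform on which caspase-9 is activated. Bcl-xL acts before this step, by holding back the release of cytochrome c. Caspase-6 is an effector, caspase-2 is an initiator activated on a separate platform, and XIAP binds and inhibits caspases. H3K4me3 marks nucleosomes around the starts of active and poised genes, is usually rich at CpG islands, and is often highest just downstream of the start, so a peak of it describes the promoter and not the amount of protein or its activation.

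The H3K4me3 lists held 10247 to 17711 peaks on the chromosomes used, whose summits held 9 to 12 fragments in the median, and the IgG lists 244 to 2113. Control library 3 had the fewest peaks and the lowest background floor, 0.0478 fragments per base against 0.0659 to 0.0705 in the other H3K4me3 libraries, a relative measure of depth. Fragment numbers were solved from the deposited fold and p of each peak, since the lists give no read totals. Of 10 neuroendocrine markers, 4 (CHGB, SCG2, SCG3 and NEUROD1) had a peak up to 1 kb from the 5′ end in each of the 5 H3K4me3 libraries, and ENO2, INSM1, ISL1 and NKX2-2 had none within that distance in any. CHGA had one in 1 control library only and SYP in 1 library of each line, at 1 kb and at 2.5 kb alike. At 2.5 kb INSM1 was marked in all 5, ENO2 in 1 HA-Bcl-xL library, and ISL1 and NKX2-2 still in none. Of 4 epithelial markers, 3 (KRT8, KRT18 and CDH1) had one within 1 kb in all 5 libraries. KRT8 and KRT18 are neighbours whose best peak had the same rank and fragment number in each of them, so they are not separate observations. None of 4 immune, 4 fibroblast and the 2 endothelial markers found in the annotation had one within 1 kb in any library, and at 2.5 kb 1 fibroblast marker, COL1A1, had one in 1 HA-Bcl-xL library.

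Counting peaks up to 1 kb from the most 5′ annotated end, CASP2, CASP8, CASP9 and CYCS were marked by an H3K4me3 peak in all 5 libraries. APAF1 had one in 4 libraries, CASP6 and XIAP in 1 control and 1 HA-Bcl-xL library each, and CASP10 in none. So 4 of 8 genes were marked in every library, where 21.3% of all protein-coding genes were, and 1 of 8 in no library, where 51.8% were. None of the 8 was marked in every HA-Bcl-xL library while unmarked in the control line, a pattern found at 0.844% of all genes. None had the opposite pattern either, found at 0.248%. By library, 6, 5 and 5 of the genes were marked in control libraries 1 to 3, and 5 and 7 in HA-Bcl-xL libraries 2 and 3. Over all genes, 40.4, 32.4 and 28.2% were marked in those control libraries and 38.1 and 36.5% in those HA-Bcl-xL libraries. The ranges overlap: the control line had 5.33 ± 0.577 marked genes (SD, n = 3) and the HA-Bcl-xL line 6.0 ± 1.41 (SD, n = 2), a difference of 0.667 within the spread between libraries. Without HA-Bcl-xL library 2 the difference was 1.67, and without HA-Bcl-xL library 3, or with the lists cut to equal length, it was -0.333. Since 2 libraries against 3 cannot give an exact two-sided p below 0.2, no test was made of it.

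At 2.5 kb, XIAP was also marked in all 5 libraries and CASP6 in 4, which brought the counts to 6.33 ± 1.15 genes for control (SD, n = 3) and 7.0 ± 0.0 genes for HA-Bcl-xL libraries (SD, n = 2). The 5 genes marked in all libraries compare with 25.6% of all genes at that distance. Again no gene of the 8 was marked in one line alone, where 0.824% of all genes were marked in HA-Bcl-xL cells alone and 0.248% in control cells alone. Extending the distance to 10 kb added none: the same 5 genes were marked in all libraries (29.7% of all genes), CASP10 still had no peak (39.5% of all genes), and 0.904% and 0.243% of all genes were marked in HA-Bcl-xL or control cells alone. Measured over 1 kb on either side of any annotated transcript start, the counts equalled those at 2.5 kb, against 26.5% of all genes marked in all 5 libraries, 0.899% in HA-Bcl-xL cells alone and 0.238% in control cells alone.

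The IgG libraries had no peak within 10 kb of any of the 8 genes in any of 6 libraries. Over all genes, 0.785% had an IgG peak within 1 kb in at least 1 library, and 0.199 to 1.54% per library had one within 10 kb, so a count of 0 of 8 is near the background. The nearest IgG peak lay 41688 bp from the CYCS 5′ end, and for the other 7 genes at least 165199 bp away.

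**Figure D1:**
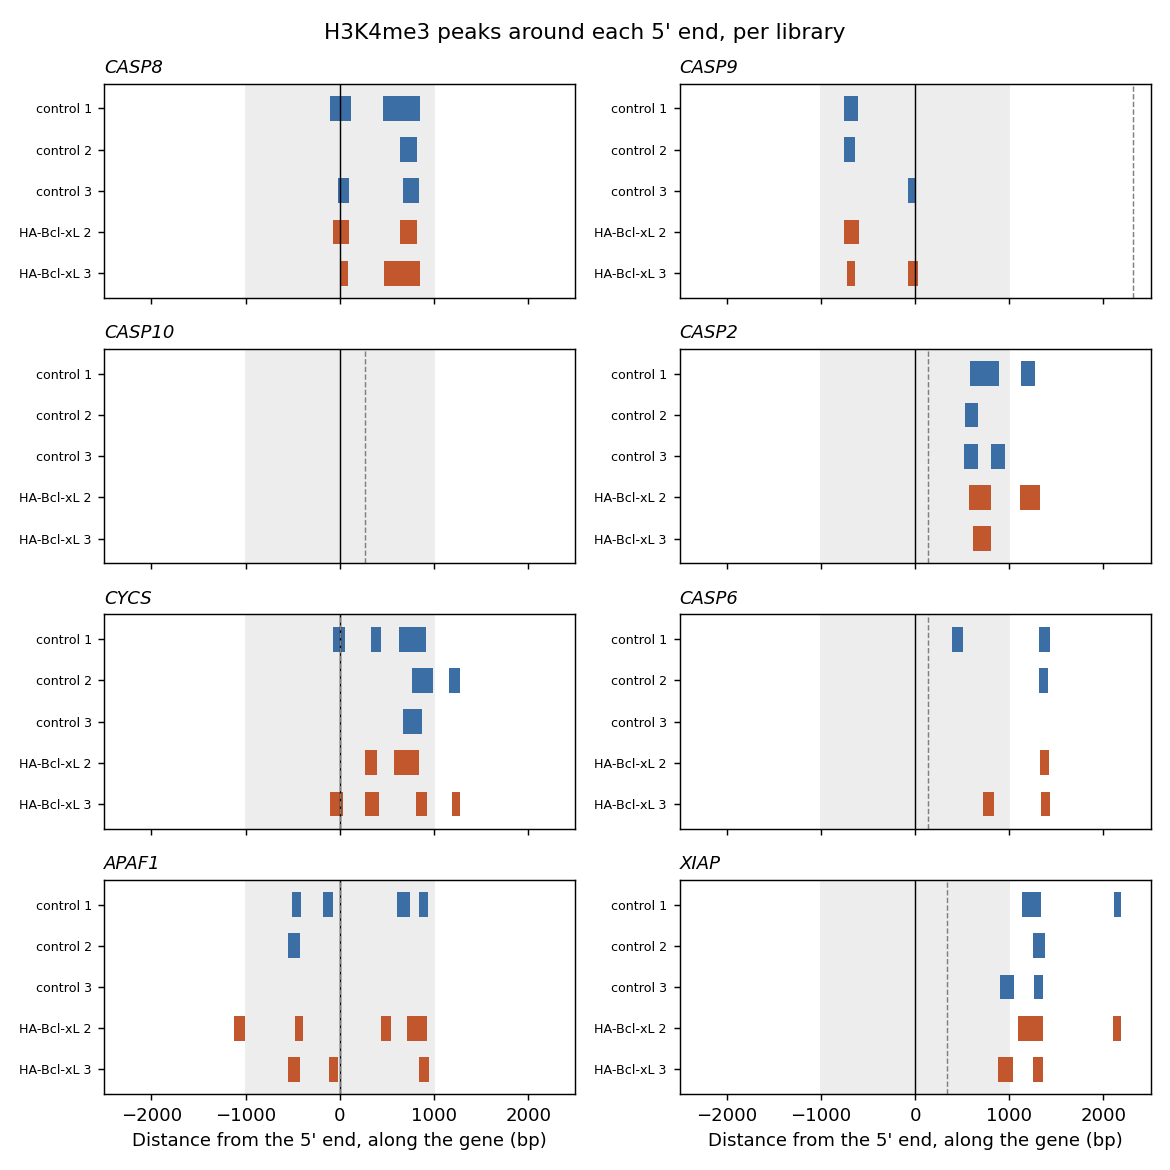
Positions of the H3K4me3 peaks around the 5′ end of each of the 8 genes (x axis, distance along the gene in bp, from 2.5 kb upstream to 2.5 kb downstream), with 1 row per library in blue for control and orange for HA-Bcl-xL. The solid line is the 5′ end, the dashed line the start of the canonical transcript where it lies in view, and the grey band 1 kb on either side; CASP10 is empty, and most peaks of CASP2, CASP6 and XIAP sit downstream of the line.

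In all, 62 H3K4me3 peaks lay within 2.5 kb of the 8 genes' 5′ ends over the 5 libraries. They were 80 to 393 bp wide (median 129.5 bp) and rested on 6 to 20 fragments at the summit (median 11). Only 8 of them covered a 5′ end, at CASP8, CASP9 and CYCS, and 46 had their summit downstream of it. Taking the strongest peak of each gene within 2.5 kb, the summit was downstream at 4 to 6 of the 5 to 7 marked genes per library, where over all marked genes 59.3 to 60.9% were downstream, with a median position of 180 to 224 bp.

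The gene at the head of the death receptor route, CASP8 (chromosome 2, plus strand, 5′ end at 202098166 in GRCh37), was marked in every library. The 250 bases before its 5′ end are shown because a peak covered this start in 4 of 5 libraries although it is poor in CpG; capitals mark CpG pairs here and in every sequence that follows. All sequences are from GRCh37 and read 5′ to 3′ on the gene's strand. The second sequence is the stretch of the gene that lay under a peak in all 5 libraries, 666 to 821 bp downstream of the 5′ end, mostly in an intron and touching an exon at its edge.
CASP8 before the 5′ end, chr2:202097916-202098165: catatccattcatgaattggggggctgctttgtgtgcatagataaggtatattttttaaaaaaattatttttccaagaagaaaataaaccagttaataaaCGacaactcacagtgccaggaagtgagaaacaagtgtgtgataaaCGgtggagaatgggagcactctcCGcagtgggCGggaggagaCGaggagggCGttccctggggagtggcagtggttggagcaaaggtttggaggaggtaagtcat
CASP8 shared stretch, chr2:202098832-202098987: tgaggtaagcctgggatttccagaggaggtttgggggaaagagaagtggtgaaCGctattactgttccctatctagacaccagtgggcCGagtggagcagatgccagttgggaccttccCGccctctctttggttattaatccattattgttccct

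The peak at the CASP8 5′ end was 226 bp wide with 14 fragments in control library 1, and 120 bp with 8 fragments in control library 3. It was 172 bp with 13 fragments in HA-Bcl-xL library 2 and 87 bp with 13 fragments in HA-Bcl-xL library 3, and was not called in control library 2. The downstream peak was called in all 5 libraries, on 19, 17 and 10 fragments in control libraries 1 to 3 and 13 and 15 in HA-Bcl-xL libraries 2 and 3. Within its own library, the stronger CASP8 peak ranked at the 89.1, 92.9 and 70.3 percentile of −log10 p in the control lists and at 76.1 and 83.3 in the HA-Bcl-xL lists. CASP8 was thus in the upper part of every list, with control and HA-Bcl-xL values overlapping.

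CASP8 has 22 distinct annotated starts, and its canonical transcript begins 27093 bp downstream of the 5′ end. No library had a peak within 1 kb of that canonical start. A second group of peaks lay before it. Control library 1 had peaks of 102 bp and 98 bp there, on 7 and 6 fragments, with summits at -2533 and -1870 bp from the canonical start. HA-Bcl-xL library 3 had 1 of 83 bp on 11 fragments, at -2524 bp. The other 3 libraries had none, so this inner site was called in 1 library of each line.

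CASP10, the other death receptor initiator, lies on the same strand with its 5′ end at 202047595, 50571 bp before that of CASP8. No H3K4me3 library had a peak within 10 kb of CASP10, and its 10 annotated starts span only 344 bp, so no other start was missed. Downstream, the nearest peaks were those at CASP8, 50463 to 51208 bp away. Upstream, the nearest was a peak 37478 bp away in HA-Bcl-xL library 2, inside CFLAR, which encodes an inhibitor of caspase-8 activation and was singled out after its values were seen because it is the next gene of the cluster. At 1 kb from the CFLAR 5′ end, 2 control libraries and 0 HA-Bcl-xL libraries had a peak, and at 2.5 kb all 5 libraries had at least 1. The HA-Bcl-xL peaks nearest to that end began 2419 bp inside it in library 2 and 1971 bp in library 3. The lists hold only peaks with a q-value of at most 0.01, so a mark below that limit was not detectable at this depth.

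**Figure D2:**
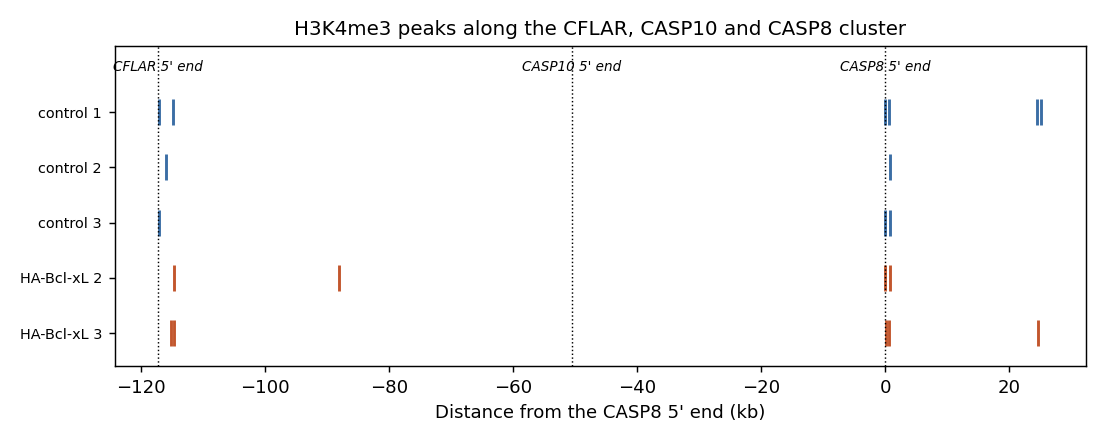
H3K4me3 peaks along the CFLAR, CASP10 and CASP8 cluster in each of the 5 libraries (rows), plotted by distance from the CASP8 5′ end in kb, with dotted lines at the 3 genes' 5′ ends. Peaks gather near the CFLAR and CASP8 lines in every library and none sits near the CASP10 line; 1 peak of HA-Bcl-xL library 2 lies 37478 bp before CASP10.

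The sequences around both of these initiators were poor in CpG. Over 2 kb around the 5′ end, the ratio of observed to expected CpG was 0.281 at CASP8 and 0.263 at CASP10, against a median of 0.612 over all genes. When all genes were ordered by this ratio, CASP8 fell in the third decile, where 3.58% of genes had a peak in all 5 libraries, and CASP10 in the second, where 0.894% did. CASP8 was thus marked in every library within a decile where few genes were. The other 6 genes had ratios from 0.611 at XIAP to 0.822 at CYCS and fell in deciles where 30.1 to 36.3% of genes had a peak in all 5 libraries. These values describe base composition and were not tested against the mark.

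**Figure D3:**
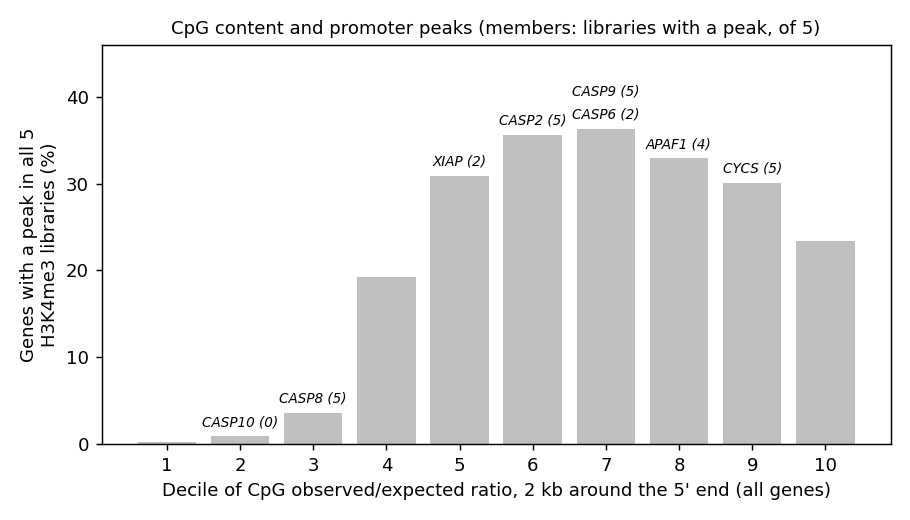
Percentage of all protein-coding genes marked by H3K4me3 in all 5 libraries, counting peaks up to 1 kb from the 5′ end (y axis), by decile of the CpG observed/expected ratio over 2 kb (x axis, bars). The 8 genes are written above their decile with the number of libraries, of 5, in which they had a peak; CASP8 (5) stands over a bar of 3.58% and CASP10 (0) over 0.894%.

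In the mitochondrial route, CYCS (chromosome 7, minus strand, 5′ end at 25164879), the gene of cytochrome c, was marked in all 5 libraries. Its promoter is shown because it holds the letters GCATGCGC, the core of the site of nuclear respiratory factor 1, a known regulator of respiratory genes, with the first base at -169 from the 5′ end. The short stretch under a peak in all libraries lies 813 to 844 bp downstream, in the first intron.
CYCS before the 5′ end, chr7:25164880-25165129: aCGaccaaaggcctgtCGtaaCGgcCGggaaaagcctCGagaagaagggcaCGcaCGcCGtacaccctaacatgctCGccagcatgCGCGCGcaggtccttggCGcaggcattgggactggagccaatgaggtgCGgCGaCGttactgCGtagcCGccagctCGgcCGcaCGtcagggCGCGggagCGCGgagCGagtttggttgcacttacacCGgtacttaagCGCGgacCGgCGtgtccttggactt
CYCS shared stretch, chr7:25164035-25164066: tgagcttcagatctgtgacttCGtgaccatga

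The 5′ end of CYCS itself was covered in control library 1 (129 bp, 13 fragments) and in HA-Bcl-xL library 3 (138 bp, 14 fragments) and in no other library. The peak around the shared stretch was 282, 216 and 202 bp wide in control libraries 1 to 3, and in HA-Bcl-xL libraries 2 and 3 it was 267 and 110 bp wide. The strongest CYCS peak within 1 kb had 17, 10 and 8 fragments in the control libraries and 13 and 14 in the HA-Bcl-xL libraries. Its rank was at the 75.8, 38.8 and 29.3 percentile in control and the 58.3 and 68.0 percentile in HA-Bcl-xL lists. The HA-Bcl-xL values lay inside the control range for both measures.

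APAF1 (chromosome 12, plus strand, 5′ end at 99039068), whose product forms the scaffold of the apoptosome, starts close to IKBIP, which runs the other way from a 5′ end at -177 bp. It had 436 and 132 bases under peaks within 1 kb in control libraries 1 and 2 and 0 in library 3, and 406 and 343 in HA-Bcl-xL libraries 2 and 3. The absence in control library 3 set APAF1 apart from the genes marked in all libraries. That library had the lowest background floor and the shortest list, and the part of depth in this absence was not tested. Over all genes, 4.32% shared the pattern of APAF1 across the libraries. In control library 3 the only peak of the gene was in its body, 60148 bp from the 5′ end, on 3 fragments. The stretch marked in the other 4 libraries lay upstream of APAF1, from -480 to -418 bp, in an untranslated exon of IKBIP, and 3 of these libraries also had peaks in the first kilobase of APAF1. Reads at such paired starts cannot be assigned to either gene.

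CASP9 (chromosome 1, minus strand, 5′ end at 15853029), the caspase of the apoptosome, also shares its start region, here with DNAJC16, which begins at -279 bp on the opposite strand. All its peaks lay at or upstream of its 5′ end. The stretch under a peak in 4 libraries ran from -725 to -641 bp, in an intron of DNAJC16, and is shown on the CASP9 strand because it is the most frequent peak counted for this gene yet lies in its neighbour.
CASP9 stretch shared by 4 libraries, chr1:15853670-15853754: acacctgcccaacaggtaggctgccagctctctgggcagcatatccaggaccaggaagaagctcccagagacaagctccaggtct

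This distal peak had 14 fragments in each of control libraries 1 and 2 and 12 in each of HA-Bcl-xL libraries 2 and 3. Control library 3 lacked it and had an 83 bp peak over the 5′ end on 10 fragments. HA-Bcl-xL library 3 had both, with 103 bp and 16 fragments over the 5′ end. The canonical CASP9 transcript begins 2319 bp further downstream, and no library had a peak within 1 kb of that start. With canonical starts in place of 5′ ends, a choice added after seeing the data, CASP8 and CASP9 dropped out and XIAP came in, and the counts were 4.0 ± 1.0 genes for control (SD, n = 3) and 4.5 ± 0.707 genes for HA-Bcl-xL libraries (SD, n = 2). By canonical starts, 22.9% of all genes were marked in all 5 libraries, 48.0% in none and 30.3 to 43.8% per library. Over all genes, 16.6% have a canonical start more than 1 kb from the 5′ end.

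CASP2 (chromosome 7, plus strand, 5′ end at 142985308), the initiator activated outside the apoptosome, was marked downstream of its start in all 5 libraries. The stretch common to all of them, 615 to 672 bp downstream in an intron, is shown because it holds no CpG.
CASP2 shared stretch, chr7:142985923-142985980: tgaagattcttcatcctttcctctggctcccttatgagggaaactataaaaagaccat

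The strongest CASP2 peak within 1 kb had 20, 11 and 11 fragments in control libraries 1 to 3, and 11 and 10 in HA-Bcl-xL libraries 2 and 3. Its rank was 85.3, 58.1 and 63.0 in the control lists and 49.1 and 39.8 in the HA-Bcl-xL lists. The HA-Bcl-xL ranks were the lowest of the 5, whereas the fragment numbers of the lines overlapped. Ranks in lists of unequal length cannot by themselves show a change or its absence. A second peak further downstream, from 1127 and 1110 bp, was called in control library 1 on 9 fragments and in HA-Bcl-xL library 2 on 11.

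CASP6 (chromosome 4, minus strand, 5′ end at 110624739), the effector of the group, was marked on 6 to 11 fragments. Most of its peaks lay over 1 kb from that 5′ end. The most frequent site, called in 4 libraries, ran from 1337 to 1408 bp downstream in an intron, which is outside the 1 kb window, where the gene is counted in only 2 libraries. CASP6 has 8 annotated starts, and the peaks at this site lay 578 to 603 bp from the nearest of them.
CASP6 stretch shared by 4 libraries, chr4:110623331-110623402: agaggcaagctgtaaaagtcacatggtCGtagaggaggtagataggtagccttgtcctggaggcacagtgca

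At that site CASP6 had 8 and 11 fragments in control libraries 1 and 2, and 6 and 10 in HA-Bcl-xL libraries 2 and 3. Control library 3 had no peak within 10 kb of CASP6. Within 1 kb, control library 1 had a peak of 114 bp on 11 fragments and HA-Bcl-xL library 3 one of 121 bp on 8 fragments, at different places. The same pattern of presence over the libraries was found at 1.25% of all genes.

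XIAP (chromosome X, plus strand, 5′ end at 122993562), the caspase inhibitor, had its most frequent mark beyond 1 kb as well. A stretch from 1262 to 1339 bp downstream, in an intron, was under a peak in all 5 libraries and again holds no CpG.
XIAP shared stretch, chrX:122994824-122994901: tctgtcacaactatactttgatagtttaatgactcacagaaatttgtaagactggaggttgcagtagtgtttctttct

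Its strongest peak within 2.5 kb had 14, 19 and 9 fragments in control libraries 1 to 3, and 13 and 14 in HA-Bcl-xL libraries 2 and 3. The ranks were 68.7, 94.3 and 49.1 in control lists and 75.7 and 80.5 in HA-Bcl-xL lists. The canonical XIAP transcript starts 341 bp inside the 5′ end, and measured from there the peak fell within 1 kb in all 5 libraries. At 1 kb from the 5′ end, only control library 3 and HA-Bcl-xL library 3 had a peak, on 9 and 14 fragments, a pattern shared by 0.179% of all genes. These peaks, at 902 to 1051 bp and 881 to 1036 bp, were separate from the shared stretch.

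**Figure D4:**
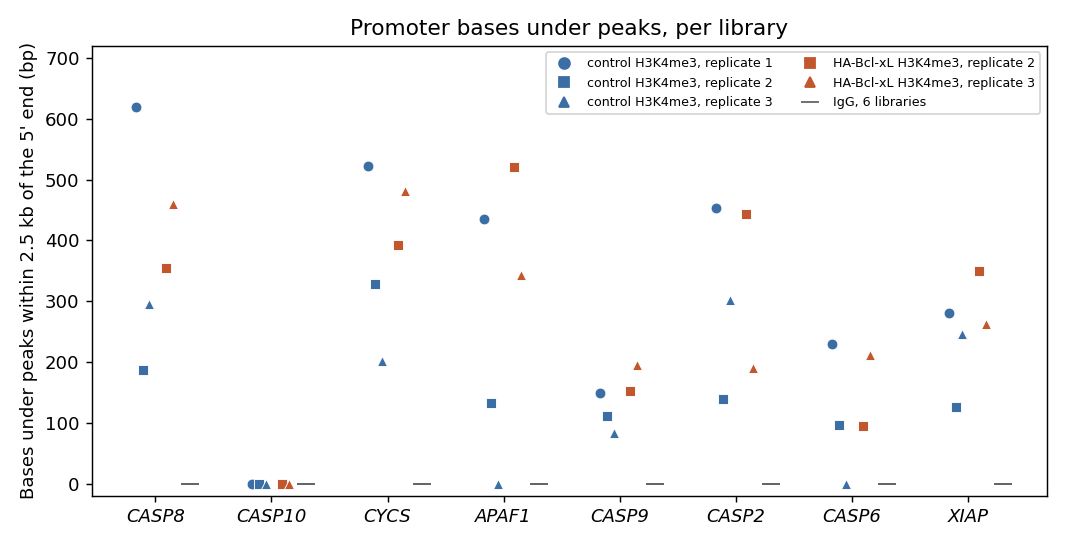
Bases under peaks within 2.5 kb of the 5′ end (y axis, bp) of each of the 8 genes in each library, with circles, squares and triangles for replicates 1, 2 and 3, blue for control and orange for HA-Bcl-xL H3K4me3, and grey dashes for the 6 IgG libraries. CASP10 and all IgG values are at 0, and only at CASP9 do both HA-Bcl-xL values (152 and 195 bp) exceed the 3 control values (at most 149 bp).

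Width was compared between the lines as the number of bases under H3K4me3 peaks within 2.5 kb of the 5′ end. The 5151 genes with a peak there in all 5 libraries could be tested, and 5 of the 8 were among them. CASP8 had 619, 187 and 295 bases in control libraries 1 to 3 and 355 and 460 in HA-Bcl-xL libraries 2 and 3. CYCS had 522, 329 and 202 bases in control and 393 and 481 in HA-Bcl-xL libraries. Both HA-Bcl-xL values of these genes fell inside the control range. CASP9 had 149, 111 and 83 bases against 152 and 195. CASP2 had 454, 139 and 302 against 443 and 190, and XIAP 280, 126 and 246 against 349 and 263. Only at CASP9 did the groups not overlap, both HA-Bcl-xL libraries being above all control libraries, as was so at 9.44% of the genes tested. The opposite order was found at none of the 5 genes and at 5.77% of the genes tested. At CASP9 the lower HA-Bcl-xL value (152) and the highest control value (149) each came from the distal peak nearest to the DNAJC16 start.

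None of the 5 passed the test of width, by limma with Benjamini-Hochberg adjustment. The log2 difference, HA-Bcl-xL minus control after centring each library on its median, was 0.51 at CASP9 (SE 0.412, adjusted p 0.987 by limma) and 0.44 at XIAP (SE 0.452, adjusted p 0.996 by limma). It was 0.30 at CYCS (SE 0.418), 0.20 at CASP8 (SE 0.455) and 0.00086 at CASP2 (SE 0.495), each with an adjusted p of 0.996 or more by limma. The median of the 5 was 0.30, against -0.02 over all genes tested, and 48.5% of all genes tested had a value above 0. Over all genes limma called 0 of 5151 (0%), with 269 at an unadjusted p under 0.05. These standard errors leave room for sizeable differences, so the widths are not shown to be alike.

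**Figure D5:**
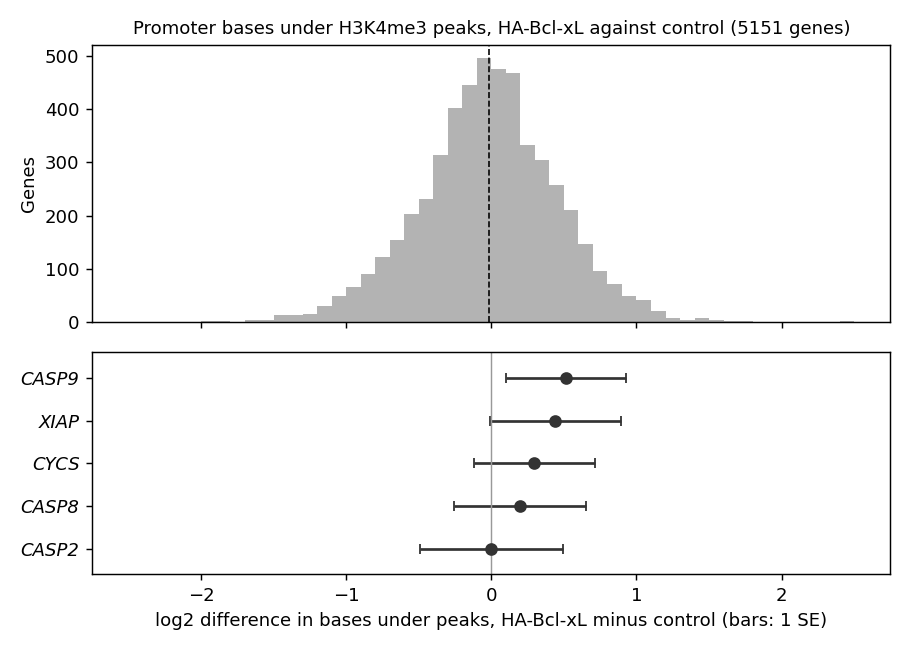
Upper panel, histogram of the log2 difference in bases under H3K4me3 peaks within 2.5 kb of the 5′ end, HA-Bcl-xL minus control, over 5151 genes (y axis, genes; dashed line, median). Lower panel, the 5 genes that could be tested, as estimates with bars of 1 SE; they run from 0.00086 at CASP2 to 0.51 at CASP9, inside the spread of all genes.

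In the 300 bases from 250 before to 50 after the 5′ end, 7 short motifs were searched on both strands without mismatches, and a match is only a description of the letters. The nuclear respiratory factor 1 core GCATGCGC was in 2 of the 8, CYCS and CASP10, the latter without a peak in any library, and in 3.76% of all promoters. The GC box GGGCGG, bound by Sp1 family factors, was in 5 of the 8, with 4 copies in CASP2, and in 52.2% of all promoters. The CCAAT box was in 4 of the 8 and in 35.8% of all promoters. None of the 8 held the cAMP response element TGACGTCA (2.28% of all promoters), the E2F site TTTCCCGC (1.97%), the ETS site CCGGAAGT (5.06%) or the TATA box TATAAA (10.9%).

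The 8 genes were set beside 4 lists of related genes by the same measure, a peak within 1 kb in all 5 libraries, with 21.3% of all genes as background. Of 11 genes of death receptors and their complex, 2 were marked in all libraries, TNFRSF10A and TNFRSF10B, the receptors of the ligand TRAIL, with mean ranks of 84.7 and 46.2. Of 9 inhibitors of apoptosis and their antagonists, 2 were: HTRA2, a mitochondrial protease that opposes XIAP, at 82.7 and BIRC5, which encodes survivin, at 57.1. CASP8AP2, whose product binds caspase-8, was the only one of 8 adaptors and regulators, with a mean rank of 91.1. Of 7 nucleases and substrates of execution, ACIN1, cleaved to condense chromatin, had 98.8 and DFFB, the nuclease that cuts DNA between nucleosomes, 61.2. None of these related genes had a peak in every library of 1 line and none of the other, and none had an IgG peak within 1 kb.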

How the data were processed

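Per the labels, CUT&RUN libraries were made with a ThruPLEX kit. Per the submitters' processing notes, bcl2fastq 2.20, Trimmomatic 0.36, Bowtie2 2.2.9, MACS2 2.1.1 and deepTools 3.5.1 were used with hg19. Duplicate treatment, multiple mapping and any control given to the caller are not given in the sources used here. The authors deposited 1 narrowPeak list per library, whose columns hold a score (10 times the −log10 q, cut to an integer), a fold enrichment ratio, a −log10 p and a −log10 q per peak, as well as a summit position, called per library. These values are the authors' own and were used only within a list. If the deposited fold is (n + 1) / (background + 1) and p a Poisson tail, then both are solved by a whole number n, taken as the fragments over the summit. Such an n was found for 95.9 to 99.97% of the peaks of a list, with −log10 p matched within 0.001. For 3 of the 62 peaks near the 8 genes another number came within 0.01. Copies made by PCR are not independent molecules, so these numbers cover counting only. Whether n counts fragments or reads is not recorded.

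A promoter was marked with at least 1 bp of a peak within 1 kb of the most 5′ end in GENCODE 44 lifted to GRCh37, and 0 peaks ended beyond that reference. Positions are 1-based, and sequences are from GRCh37. Ranks are percentiles of −log10 p within a list. Widths, as log2 of the bases under peaks, were fitted in R 4.3.3 with limma 3.58.1, each library centred on its median, at an adjusted p of 0.05. Counting and limma steps were tested on simulated data. The genes, lists, tests and naming rule (related genes marked in 1 line only, or the 2 per list marked in all 5 libraries with the highest mean rank) were chosen with earlier results of these data known. Some items among the related genes and sequences are not reported here. Replicate 1 of H3K4me3 in HA-Bcl-xL cells was not analysed here. Python 3.11.15, numpy 2.4.6, pandas 2.3.3, scipy 1.17.1 and matplotlib 3.10.9 were used.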

Additional observations from a re-analysis of the deposited data

How the results depend on the processing

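With H3K4me3 lists cut to equal length (10247 peaks), the difference in marked genes, HA-Bcl-xL minus control, was -0.333 in place of 0.667, since CASP6 and APAF1 lost their weak peaks in HA-Bcl-xL replicate 3. It ranged from -0.333 to 1.67 when 1 library was left out, and the other settings moved it by less than the spread between libraries. In the replicate block of same-numbered libraries it was 1.0. The labels give shared numbers only, and deviations in width of same-numbered libraries correlated by 0.00455 and 0.0297. With 2 HA-Bcl-xL libraries, the correlations of each control library are equal and opposite, so they cannot show whether same-numbered libraries are paired. The excess of H3K4me3 over IgG was 5.33 genes in control cells and became 6.33 at 2.5 kb, 10 kb or any start and 4.0 at canonical starts. In HA-Bcl-xL cells 6.0 became 7.0, 7.0, 7.0 and 4.5, and 5.0 with a −log10 q of at least 5 or equal list lengths. It ranged from 5.0 to 7.0 in HA-Bcl-xL cells when 1 library was left out. Over all genes, the number called for width was 0, but 2 under the replicate block, and ranged from 0 to 3 when 1 library was left out: 2 without HA-Bcl-xL replicate 2 and 3 without replicate 3, none of them among the 8. Each of these fits leaves 1 HA-Bcl-xL library, which is assumed to vary like the control libraries. The causes were not tested. The width of CASP2 changed sign at 1 kb (-0.30), at 10 kb (-0.00303) and when genes with a peak in at least 1 library were tested with 50 bases added (-0.0722), and ranged from -0.56 to 0.55 with 1 library left out. That of CASP8 ranged from -0.16 to 0.44. CASP9, CYCS and XIAP kept their sign in all alternatives that gave a value, but with 1 library left out ranged from 0.28 to 0.74, 0.09 to 0.49 and 0.13 to 0.77. With equal list lengths CYCS was at 0.62, and with a −log10 q of at least 5 CASP2 was at 0.50. None of the 5 passed the threshold in any. Peak summits held 9 to 12 fragments in the median, and an absent peak is not shown to be an absent mark.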
